A study of Rattus norvegicus with 6 samples.

Results

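Core genes of the circadian clock were followed array by array in 6 rat liver samples, 3 from animals given a probiotic and 3 from controls. The 10 genes were Bmal1 (also called Arntl), Clock, Npas2, Per1, Per2, Per3, Cry1, Nr1d1, Nr1d2 and Dbp. They were taken by gene symbol, as every probe set whose platform annotation gives exactly 1 symbol and that symbol is on the list, which gave 17 probe sets for 10 genes among 31042 probe sets other than controls. All animals ate a fat-rich diet for 30 d, which made them hypercholesterolemic. For a further 30 d they stayed on it and were gavaged daily with 1 ml of saline, alone in the high-fat group and with the lactic acid bacterium Lactobacillus casei Zhang in the probiotic group. There was no group on ordinary chow, so the diet is shared by every sample. The labels used here give no strain, sex, age or time of day at which livers were taken, and do not say outright that each sample is a separate rat, so p-values measure the spread between these samples, which may be partly technical.

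The clock of a liver cell is a delayed feedback loop. BMAL1 pairs with CLOCK or with its relative NPAS2, and the pair binds E-boxes in DNA and activates the Per, Cry, Nr1d and Dbp genes. PER and CRY proteins then inhibit the pair, while the products of Nr1d1 and Nr1d2, the receptors REV-ERB alpha and beta, bind ROR elements and repress Bmal1, Npas2 and Cry1. In rodent liver, transcripts of Bmal1 and Npas2 are therefore high at the time of day when those of Dbp, Nr1d1 and the Per genes are low, and a single liver sample shows 1 moment of this cycle. Below, Bmal1, Clock and Npas2 are called the activator arm and Per1, Per2, Per3, Nr1d1, Nr1d2 and Dbp the evening arm, and Cry1, whose rhythm lags the other repressors, is kept apart.

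RefSeq promoter windows (rat assembly GRCr8) were found for 9 of the 10 genes and not for Cry1. The 250 bases before each transcription start were searched on both strands for the E-box CACGTG, the variant E-box CACGTT, the D-box TTATGTAA that DBP and its relatives bind, the core TAGGTCA of the ROR element and the cyclic AMP response element TGACGTCA. No matches overlapped another, and 4 of 11 windows, those of Bmal1, Per2 and Nr1d1, held any. The 3 windows below are among the 4 that held a match. Bmal1 moved against Per2 and Nr1d1 on these arrays, as described further on. It also moved against Dbp and Nr1d2, whose windows held no match. The windows are written 5' to 3' on the gene's strand, and capitals mark the matches. The Bmal1 window is chr1:176766078-176766327 (+), and its ROR element core lies 16 to 10 bases before the start. The Per2 window is chr9:99496994-99497243 (-), with the D-box 192 to 185 and the variant E-box 62 to 57 bases before the start. The Nr1d1 window, which precedes the downstream of 2 starts, is chr10:84229455-84229704 (-), with the E-box 191 to 186 bases before it.
Bmal1: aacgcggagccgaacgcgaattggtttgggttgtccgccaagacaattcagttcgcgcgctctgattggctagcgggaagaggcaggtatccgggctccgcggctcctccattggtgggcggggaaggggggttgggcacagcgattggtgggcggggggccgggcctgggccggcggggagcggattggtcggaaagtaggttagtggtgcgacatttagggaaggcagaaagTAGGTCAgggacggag
Per2: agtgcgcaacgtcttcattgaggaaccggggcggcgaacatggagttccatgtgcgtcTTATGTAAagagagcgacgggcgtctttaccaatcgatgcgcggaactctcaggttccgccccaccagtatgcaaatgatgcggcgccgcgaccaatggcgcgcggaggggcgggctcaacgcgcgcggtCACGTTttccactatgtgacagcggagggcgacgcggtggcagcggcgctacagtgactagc
Nr1d1: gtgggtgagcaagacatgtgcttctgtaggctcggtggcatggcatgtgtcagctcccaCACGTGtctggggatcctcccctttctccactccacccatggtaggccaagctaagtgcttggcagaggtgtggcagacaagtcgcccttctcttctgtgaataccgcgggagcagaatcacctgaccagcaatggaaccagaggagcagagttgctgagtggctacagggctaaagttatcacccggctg
Among all 33469 windows of this length, 2.26% held the ROR element core, 0.828% the D-box, 4.07% the variant E-box, 5.59% the E-box and 1.59% the cyclic AMP response element. The window of the other Nr1d1 start held the variant E-box on the opposite strand, 174 to 169 bases before it. A match is a description of letters only.

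Each array gave 1 intensity per probe set. The mean after trimming was 500.3 for each array, and medians lay between 90.05 and 146.9. The liver label was borne out by 9 measured hepatocyte markers, whose mean log2 signal lay between 15.56 and 15.66 on all arrays. On the first principal component (35.5% of variance), high-fat array 2 scored -75.55 and probiotic array 2 scored 51.59, the extremes in either direction. The 3' to 5' signal gap of the Actb controls, which grows as RNA gets shorter, was 2.51 ± 0.504 on probiotic arrays and 1.80 ± 0.279 on high-fat arrays (log2, n = 3 each, ± SD, two-sided exact permutation p = 0.1, the smallest possible with 3 against 3). That of the Gapdh controls was 1.17 ± 0.463 against 0.594 ± 0.140, with the groups overlapping (same test, exact permutation p = 0.2). In whole liver, fewer cells of a type and less RNA per cell cannot be told apart.

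Taken as means over their genes, the 2 arms of the clock moved in opposite directions from array to array, within the probiotic group as well as within the high-fat group. Dbp, a transcription factor that is a direct and strongly rhythmic output of the clock, spanned 40.4-fold over the 6 arrays on the scale given below, Npas2 10.8-fold and Bmal1 6.66-fold. High-fat array 1 and probiotic array 1 carried high Bmal1 and Npas2 with low Dbp and Nr1d1, and high-fat array 3 the reverse. Between the treatment groups no clock gene passed the test. All levels below are log2(intensity + 16) after quantile normalization, and stand for the probe set of highest mean signal of each gene unless another is named. Summed intensities are of the deposited values without that normalization, and so keep differences in brightness between arrays (medians 90.05 to 146.9, highest on high-fat array 2).

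**Figure D1:**
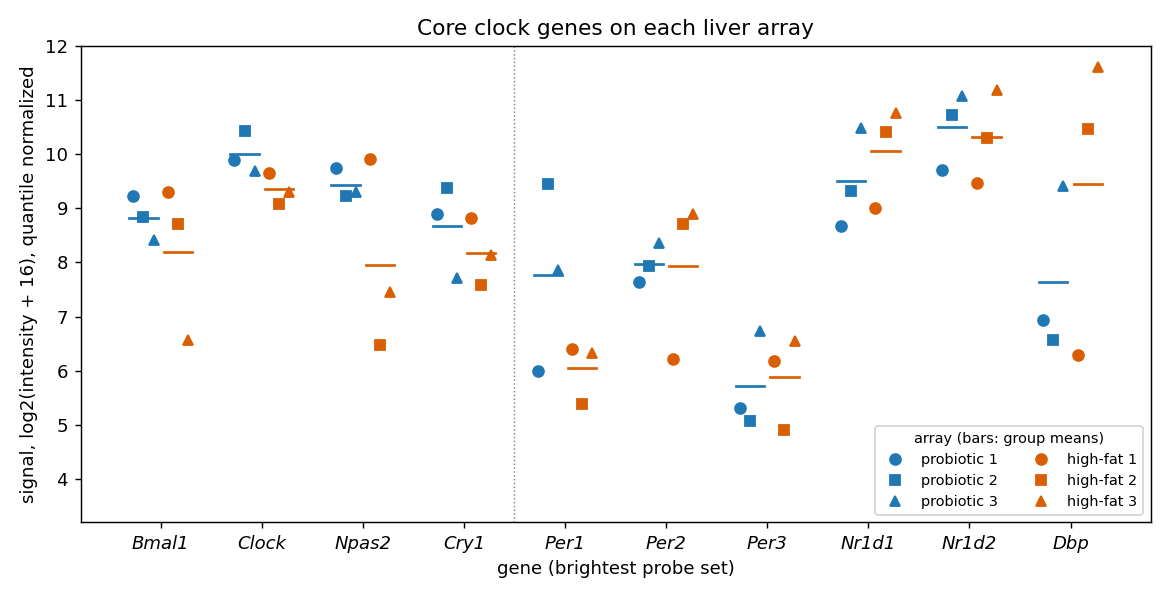
Signal of each clock gene on each of the 6 arrays, as log2(intensity + 16) after quantile normalization, with probiotic arrays in blue, high-fat arrays in orange, marker shapes for the array number and bars for the group means (n = 3). In the high-fat group Dbp runs from 6.28 on array 1 to 11.6 on array 3, while Bmal1 runs from 9.29 on array 1 down to 6.56 on array 3.

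Among the activators, Bmal1, the indispensable partner of the pair, had levels of 9.22, 8.84 and 8.42 on probiotic arrays 1, 2 and 3 and of 9.29, 8.72 and 6.56 on high-fat arrays 1, 2 and 3. High-fat array 3 was far below the other 5, and the groups overlapped. Npas2, the CLOCK relative whose gene REV-ERB represses, had 9.75, 9.22 and 9.31 in the probiotic group and 9.90, 6.47 and 7.46 in the high-fat group. High-fat arrays 2 and 3 were low, and high-fat array 1 was the highest of all 6. Clock, which encodes the other DNA-binding partner and is known for a weaker rhythm, had 9.89, 10.4 and 9.68 against 9.66, 9.08 and 9.31. Its 3 probiotic arrays lay above its 3 high-fat arrays, by a margin between probiotic array 3 and high-fat array 1 that was small beside the range within each group.

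The other Clock probe sets did not give one picture. The second brightest probe set also had every probiotic array above every high-fat array (9.38 ± 0.0408 against 8.76 ± 0.0925, SD, n = 3 each). The dimmest had every probiotic array below every high-fat array (6.02 ± 0.982 against 7.06 ± 0.497), and on the third brightest the groups overlapped (7.60 ± 0.433 against 8.04 ± 0.190). The dimmer 2 of the 4 thus pointed the opposite way from the brighter 2.

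Cry1, the repressor that acts late in the cycle and whose gene REV-ERB also represses, had 8.90, 9.38 and 7.72 in the probiotic group and 8.82, 7.59 and 8.13 in the high-fat group. It was high on both arrays numbered 1 and on probiotic array 2, and low on the rest.

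In the evening arm, Dbp had levels of 6.93, 6.58 and 9.41 on probiotic arrays 1, 2 and 3 and of 6.28, 10.5 and 11.6 on high-fat arrays 1, 2 and 3. In deposited intensities this ran from 65.9 on high-fat array 1 to 3227.9 on high-fat array 3. Arrays 1 of both groups and probiotic array 2 were low, and the other 3 were high, so that each group held low and high arrays. Nr1d1 had 8.68, 9.33 and 10.5 against 8.998, 10.4 and 10.8. The same 3 arrays were low and the same 3 high as for Dbp, with probiotic array 1 lowest and high-fat array 3 highest. Nr1d2 had 9.70, 10.7 and 11.1 against 9.47, 10.3 and 11.2, with high-fat array 3 and probiotic array 3 at the top and both arrays numbered 1 at the bottom.

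The Per genes, whose proteins inhibit BMAL1 and CLOCK, divided. Per2 had 7.65, 7.94 and 8.36 in the probiotic group and 6.22, 8.71 and 8.89 in the high-fat group, and so was lowest on high-fat array 1 and highest on high-fat array 3, as Dbp was. Per1 had 5.997, 9.44 and 7.87 against 6.41, 5.39 and 6.34, and its highest array was probiotic array 2, where Dbp was low. Per3 was dim, at 5.31, 5.08 and 6.73 against 6.19, 4.90 and 6.54, below the 40th percentile of mean signal that a probe set needed to be tested. Its highest arrays were probiotic array 3 and high-fat array 3.

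Per1 is also an immediate early gene, induced within minutes by hormones and stress. On probiotic array 2 the summed intensity of 16 measured immediate early genes (the list included Fos, Egr1 and Atf3) was 100220, against 9234.4 to 15623 on the other 5 arrays. Egr1, an immediate early transcription factor, had 14.4 there and 8.76 to 9.99 elsewhere. The part of this in the Per1 value was not tested. Without probiotic array 2 the Per1 difference between groups was 0.890, in place of 1.72 with it. Clock was highest on the same array.

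The arms were summarised per array as the mean deviation of their genes from each gene's mean over the 6 arrays. Genes were not scaled, so Dbp weighed most in the evening arm (SD over 6 arrays 2.26, followed by Per1 at 1.49). No alternative left a gene out of an arm, so how far the values and counts below rest on Dbp was not tested. The activator arm stood at 0.66, 0.54 and 0.18 on probiotic arrays 1, 2 and 3 and at 0.66, -0.87 and -1.18 on high-fat arrays 1, 2 and 3. The evening arm stood at -0.85, -0.05 and 0.76 and at -0.97, 0.13 and 0.99. The activator minus evening gap was therefore 1.51, 0.60 and -0.58 in the probiotic group and 1.63, -0.995 and -2.17 in the high-fat group. Not every gene followed its arm. Of 6 evening genes, 0, 2 and 6 lay above their own mean on probiotic arrays 1, 2 and 3. On high-fat arrays 1, 2 and 3 these were 1, 3 and 5. Of 3 activators, 3, 3 and 2 did so on the probiotic arrays and 2, 1 and 0 on the high-fat arrays. The 15 pairs of arrays reuse the same 6 arrays, so they are not independent. In 14 of the 15 the array with more of one arm had less of the other, including 6 of 6 pairs within a group. The exception was probiotic array 3 against high-fat array 2, and the activator arm of both arrays 1 differed by only 7e-04. Across the alternatives the share of opposite pairs ran from 80% with median centring to 100%. The groups overlapped widely, with a gap of 0.51 ± 1.05 on probiotic arrays and -0.51 ± 1.95 on high-fat arrays (n = 3 each, ± SD). This difference of 1.02 was 2.10 without high-fat array 1, 0.189 without high-fat array 3, 0.522 without probiotic array 1 and 1.56 without probiotic array 3, and it carries no test.

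**Figure D2:**
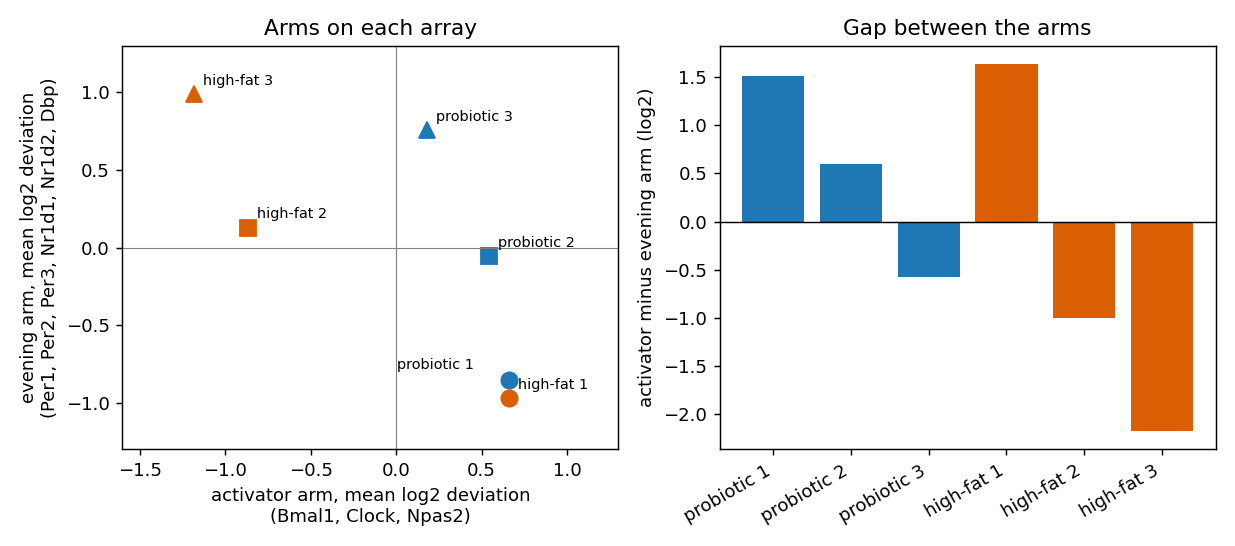
Left, the mean log2 deviation of the activator arm (horizontal) against that of the evening arm (vertical) for each of 6 arrays, and right, their difference per array as bars from 0 (probiotic blue, high-fat orange). Both arrays numbered 1 have gaps of 1.51 and 1.63, and high-fat array 3 is at the other end at -2.17.

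The opposition was carried by single genes as well as by the averages. Over the 6 arrays, Bmal1 had a Pearson r of -0.81 with Dbp (Spearman rho -0.89), -0.76 with Nr1d1 (rho -0.94), -0.76 with Nr1d2 (rho -0.94) and -0.67 with Per2 (rho -0.94). Exact permutation p-values for r were 0.0153, 0.0208, 0.0278 and 0.171, and after Benjamini-Hochberg adjustment over the 9 relations of Bmal1 they were 0.0833, 0.0833, 0.0833 and 0.384. For rho the exact permutation p was 0.0333 with Dbp and 0.0167 with each of the other 3, or 0.075 and 0.05 after adjustment, so none fell below 0.05. Without high-fat arrays 1 and 3, the 2 farthest from the median of Bmal1, r was -0.67 with Dbp, -0.92 with Nr1d1, -0.90 with Nr1d2 and -0.74 with Per2. After each group's mean was removed, r was -0.78, -0.73, -0.87 and -0.73 in the same order. With median centring in place of quantile normalization, the adjusted exact permutation p was 0.0313 for both Dbp (r = -0.90) and Nr1d1 (r = -0.88).

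The other relations of Bmal1 had r closer to 0 over the 6 arrays. Its r was 0.54 with Npas2, 0.41 with Clock, 0.40 with Cry1, -0.50 with Per3 and 0.07 with Per1, and the smallest adjusted exact permutation p among these 5 was 0.455 for r and 0.245 for rho. Without the same 2 arrays they were 0.28, 0.31, 0.66, -0.62 and -0.28, so that the sign for Per1 turned. With Npas2, r was 0.99 without high-fat array 2 (exact permutation p = 0.025, adjusted 0.075) and 0.45 to 0.56 with any other single array left out. Among all pairs of clock genes, given as a description over the same 6 arrays, 14 of 18 pairs of an activator with an evening gene were negative (median r -0.56). The 3 of 3 pairs within the activator arm were positive (median 0.54), as were 11 of 15 within the evening arm (median 0.40). Cry1 was positive with 3 of 3 activators and negative with 5 of 6 evening genes. Dbp and Nr1d1 had the highest r of any pair, 0.93, and the positive cross-arm pairs included Clock with Per1 at 0.82, both highest on probiotic array 2.

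**Figure D3:**
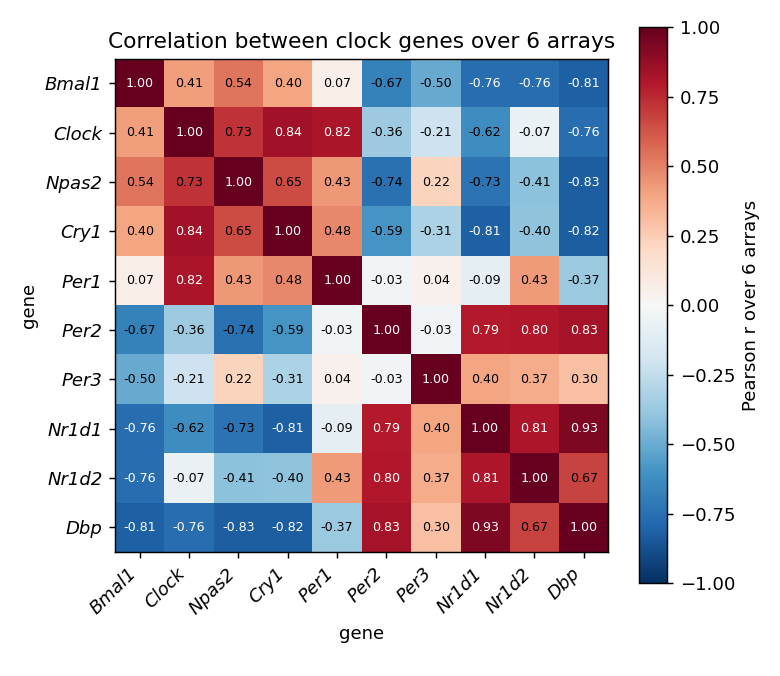
Pearson r between every pair of the 10 clock genes over the 6 arrays, from -1 in dark blue to 1 in dark red. Bmal1, Clock, Npas2 and Cry1 form a positive block set against Per2, Nr1d1, Nr1d2 and Dbp, and Per1 is positive with all 4 of the first block (0.82 with Clock, 0.48 with Cry1, 0.43 with Npas2, 0.07 with Bmal1).

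Compared with all probe sets tested, clock genes varied widely between these arrays. The SD over 6 arrays was 2.26 for Dbp, 1.49 for Per1, 1.39 for Npas2 and 1.01 for Bmal1, which lay at the 99.9th, 99.6th, 99.3rd and 95.3rd percentile of the probe sets tested. Its median over the 9 tested clock genes was 0.970, beside 0.378 over all 18625 probe sets tested. The brightest Clock probe set, at 0.470, was at the 64.5th percentile. A wide spread was not particular to clock genes. Among the genes named below from other lists, the rhythmic outputs Lpin1, Cdkn1a, Alas1 and Gys2 had SDs of 1.27, 1.22, 1.13 and 0.283. The glucocorticoid targets Mt2A and Tsc22d3 had 1.11 and 1.00, and the immediate early genes Egr1 and Nr4a1 had 2.065 and 1.42.

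The genes whose pattern over the 6 arrays was most like that of Bmal1 were found among 4194 named probe sets with an SD of at least 0.5. The closest were Orai2, a calcium channel gene (r = 0.97), Bst2, an interferon-induced antiviral factor (0.97), Sytl2 (0.97), Sfn (0.96) and the zinc finger gene Zfp142 (0.96). The most opposite were Slc35c2 (-0.96), Chpf (-0.94), Las1l (-0.94), Ifi27l2b (-0.93) and Actmap (-0.91). On all 10 probe sets high-fat array 3 was the extreme array. In the same screen Dbp was the 17th most opposite to Bmal1, the 3 Nr1d2 probe sets the 19th, 32nd and 179th, Nr1d1 the 29th and Per2 the 79th. The activators did not rank near Bmal1. Npas2 was the 349th most alike, and the dimmest Clock probe set had an r of -0.287, the 965th most opposite. Cry1 was the 530th most alike and Per1 the 1531st. With 6 arrays and this many probe sets, such likeness is a description only.

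Setting probiotic against high-fat livers asks whether these transcripts differ with the bacterium on a fat-rich diet. With limma, 0 of the 9 tested clock genes passed an adjusted p of 0.05, beside 0.0215% of all probe sets tested (4 of 18625, all lower). At an unadjusted p under 0.05 there were 2, Clock and Per1, where the background was 6.85%. Clock was the 1 gene whose groups did not overlap, against a background of 12.7%. Counting all 14 tested clock probe sets, 3 were under the unadjusted threshold and 3 did not overlap, all 3 of the latter belonging to Clock, with 1 pointing down. Of the 9 genes 7 had higher values in the probiotic group, where 50.5% of all probe sets did, and the median difference was 0.49 beside 0.00416 over all probe sets.

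The differences themselves, probiotic minus high-fat on the log2 scale with the adjusted limma p, came with wide intervals. In the activator arm, Clock had 0.65 (SE 0.26, 95% interval 0.0657 to 1.24, adjusted p = 0.726), Npas2 1.48 (SE 0.71, -0.11 to 3.07, 0.732) and Bmal1 0.64 (SE 0.60, -0.72 to 2.00, 0.809). Among evening genes, Dbp had -1.82 (SE 1.23, -4.58 to 0.94, 0.758), Nr1d1 -0.56 (SE 0.53, -1.74 to 0.63, 0.809), Nr1d2 0.18 (-0.84 to 1.20, 0.945) and Per2 0.0410 (-1.37 to 1.45, 0.993). Per1 had 1.72 (SE 0.76, 0.00595 to 3.44, 0.728) and Cry1 0.49 (-0.54 to 1.51, 0.808). Per3 was not tested and had -0.17. A missed threshold does not show that the groups were alike. For Npas2, Dbp, Bmal1 and Nr1d1 the range within the high-fat group alone (3.43, 5.34, 2.74 and 1.76 log2 units) exceeded the difference between groups.

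Single arrays decided much of what the groups showed. Npas2 had 2.47 without high-fat array 1 (limma adjusted p = 0.111) and 0.768 without high-fat array 2. Nr1d1 had -0.15 without probiotic array 1, -0.20 without high-fat array 3, -1.09 without high-fat array 1 and -1.05 without probiotic array 3. Without high-fat array 1 the difference was -3.42 for Dbp (limma adjusted p = 0.307). Without high-fat array 3 it was -0.17 for Bmal1, opposite in sign to the full set, and -0.72 for Dbp. Without probiotic array 1 Per1 had 2.62 (limma adjusted p = 0.244). With the Actb gap as a covariate, Per1 had -0.43, Cry1 -0.25, Nr1d2 -0.27 and Clock 0.17. The Actb gap was largest on probiotic array 2, at 3.07, and smallest on high-fat array 2, at 1.48, and its part in the differences was not tested apart from this fit.

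**Figure D4:**
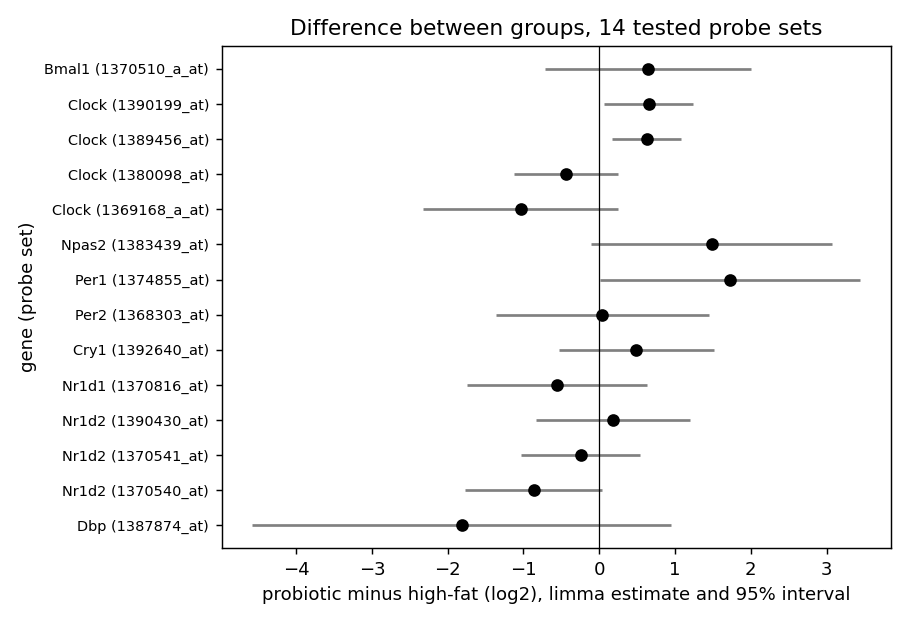
Difference between groups, probiotic minus high-fat in log2 units, for the 14 tested probe sets of 9 clock genes, with dots for the limma estimate and lines for its 95% interval (n = 3 per group). The interval of Dbp runs from -4.58 to 0.94, and those of the brighter 2 Clock probe sets and of Per1 lie above 0 before adjustment.

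Of other clock components and relatives, 14 of 17 were on the array and 12 were tested. None rose or fell (7 higher, 5 lower, median difference 0.07). Bhlhe41, a repressor that binds E-boxes and is itself clock-driven, ran with Dbp, at 5.90, 4.24 and 7.37 on probiotic arrays 1, 2 and 3 and at 5.35, 8.05 and 9.14 on high-fat arrays 1, 2 and 3 (difference -1.68, limma adjusted p = 0.740). Btrc, a ubiquitin ligase component that helps degrade PER proteins, had 9.08, 9.44 and 9.003 against 8.95, 8.53 and 8.49, without overlap (difference 0.52, limma adjusted p = 0.730). Csnk1e, the kinase that marks PER for degradation, and Rora, the activator that competes with REV-ERB at ROR elements, had differences of 0.82 and 0.57 (limma, adjusted p = 0.740 and adjusted p = 0.751).

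Of 14 genes known as rhythmic outputs in liver, 13 were on the array and 12 were tested, and again 0 rose or fell, with 7 higher and 5 lower (median difference 0.57). At an unadjusted p under 0.05 there were 4 of 12, beside 6.85% of all probe sets, and all 4 had an adjusted limma p of 0.726. Gys2, liver glycogen synthase, had 10.8, 10.6 and 10.7 in the probiotic group and 11.1, 11.2 and 11.3 in the high-fat group, without overlap (difference -0.49). Alas1, which starts heme synthesis, had 10.6, 12.8 and 13.0 against 10.5, 10.7 and 11.1 (difference 1.35), and Lpin1, a phosphatidate phosphatase, had 10.2, 12.7 and 12.6 against 10.1, 11.1 and 9.96 (1.44). Both were high on probiotic arrays 2 and 3 and low on probiotic array 1, which stood with the controls. Without probiotic array 1 Alas1 passed the adjusted limma test (difference 2.11, adjusted p = 0.0357). Cdkn1a, a cell cycle inhibitor, had a difference of 1.46 and its highest value, 12.9, on probiotic array 2.

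**Figure D5:**
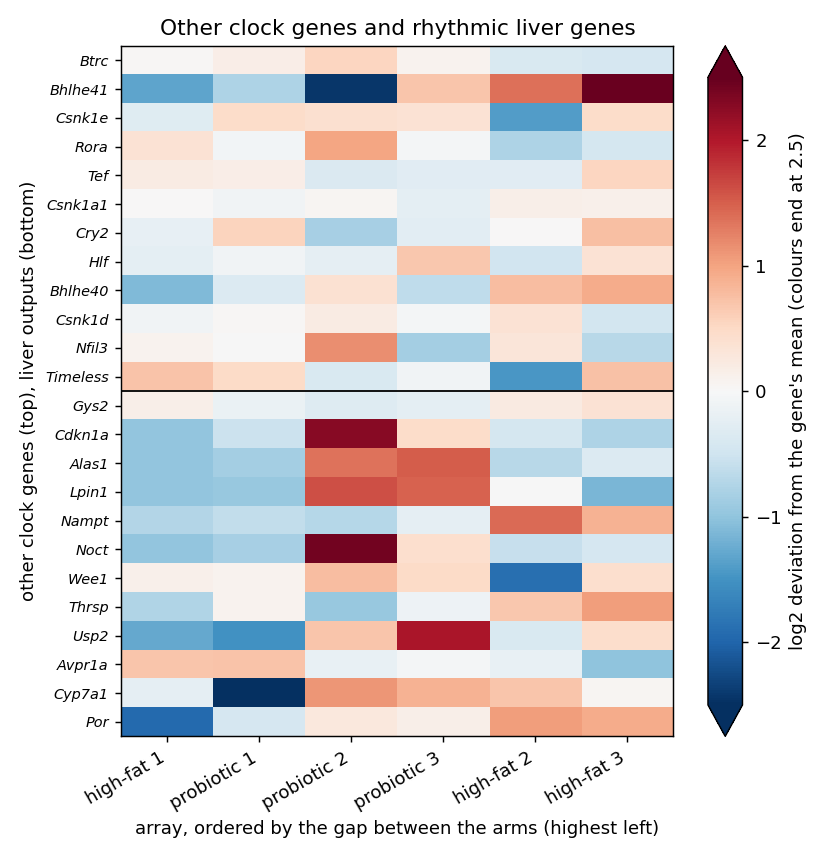
Log2 deviation from each gene's mean over 6 arrays for 12 other clock genes (top) and 12 rhythmic liver outputs (bottom), with arrays ordered from the largest activator minus evening gap on the left (1.63) to the smallest on the right (-2.17). Bhlhe41 goes from blue to red along this order apart from probiotic array 2, and Alas1 and Lpin1 are red on probiotic arrays 2 and 3.

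Glucocorticoids and feeding also set clock genes in liver, Per1 among them. Of 7 tested glucocorticoid receptor targets none passed (4 higher, 3 lower). Tsc22d3, which encodes the anti-inflammatory protein GILZ, had 10.3, 12.3 and 11.8 against 10.5, 9.96 and 9.93 (difference 1.34, limma adjusted p = 0.726), with probiotic array 1 at the level of the controls. Metallothionein gene Mt2A had a difference of -0.74, and it passed without high-fat array 1 (-1.70, limma adjusted p = 0.0111). Of 6 tested genes that answer to fasting and feeding none passed (3 higher, 3 lower). Igfbp1, an insulin-repressed binding protein, had 15.7 on probiotic array 2 and 11.2 to 12.4 on the others (difference 1.81, limma adjusted p = 0.726), and Pck1, which starts gluconeogenesis, had a difference of 0.46. Of 16 immediate early genes 15 were higher, where 50.5% of all probe sets were, and none passed, with Egr1 at 2.31 and Nr4a1 at 1.55. This count leaned on probiotic array 2, where the mean log2 signal of the 16 was 12.06. On probiotic arrays 1 and 3 it was 8.56 and 8.71, within the 8.36 to 8.96 of the high-fat arrays.

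Markers of other liver cells moved with the groups in part. All 9 tested Kupffer cell markers were lower in the probiotic group and none passed, with summed intensities of 11452 to 14491 there and 14064 to 19243 in the high-fat group. C1qc and Csf1r had differences of -0.58 and -0.49 (limma, adjusted p = 0.726 and adjusted p = 0.728). Among 7 tested blood cell markers 4 were higher and 3 lower, none past the test, with the neutrophil gene S100a9 at -1.55 and the globin Hbb at 0.72. At an unadjusted limma p under 0.05 there were 4 of the 7, beside 6.85% of all probe sets. The groups did not overlap for 3 of the 7, beside 12.7% of all probe sets. The summed intensities of the 7 were 30639 to 53081 against 20802 to 26506. These sums were mostly Hbb, whose level was 14.1 to 15.7, beside 11.1 at the highest for any other of the 7. Endothelial (2 of 4 higher), stellate (2 of 6) and bile duct markers (2 of 2) did not pass either, and their summed intensities overlapped between groups except for the 3 bile duct genes, at 1708.6 to 1944.3 against 1302.4 to 1668.3. In these lists the members of smallest p were Pecam1 (-0.37) and Kdr (-0.08), Des (0.26) and Col1a2 (0.13), and Epcam (0.28) and Krt19 (0.05). Hepatocyte markers went both ways (5 of 9 higher), with the fibrinogen gene Fgb at -0.29 and the factor Hnf4a at 0.28. The part of cell makeup in the clock gene values was not tested.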

How the data were processed

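Liver RNA, isolated with Trizol, was made into biotinylated cRNA and read on 1-colour Affymetrix arrays, per the labels. In the deposited table each probe set has 1 linear intensity per array, and the software that made it is not given in the sources used here. Once the highest and lowest 2% of probe sets are dropped, the mean intensity is 500.3 for each array. Medians of log2(intensity + 16) still ran from 6.73 to 7.35, so values were quantile normalized, which removes overall differences between arrays. Of 31099 probe sets in the deposited table, 57 controls were left out of the test.

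Names came from the platform annotation and were checked against RefSeq GRCr8 by gene identifier (20764 of 20832 probe sets with 1 symbol matched, 0 changed). Probe sets with a mean at or above the 40th percentile were tested (18625) with limma 3.58.1 in R 4.3.3 (lmFit, eBayes with trend, two-sided, Benjamini-Hochberg over all of them). A difference is on the log2(intensity + 16) scale and understates dim genes. The limma fit was tried on simulated data with known differences, and the other steps were not tested in this way. The number of arrays limits the precision.

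The genes and lists were chosen with earlier results of these data known. Named genes were all clock genes, the list members past the threshold or else those of smallest p (4 for the clock and output lists, 2 for others), and the 5 most like and 5 most opposite to Bmal1. Atf3 and Fos were named for their list only. Alternatives covered normalization, pseudocount (1 and 64), filter, variance model, weights per array, a block for replicate number, the Actb gap in the model, other probe sets, and samples left out. Fitting the arm gap as a covariate, and the alternatives for correlations and opposite pairs, were added after seeing the data. Promoter windows and their letters are RefSeq's. Figures were drawn with matplotlib 3.10.9.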

Additional observations from a re-analysis of the deposited data

How the results depend on the processing

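No clock gene passed the adjusted threshold in the reported fit or in any of 18 other settings. Of 177 values of clock gene differences under other settings, 159 kept their sign and 18 changed it, none past the test. The sign changed for Bmal1 without high-fat sample 3 (-0.17), for Clock with 2 other probe sets (-1.04 and -0.44), for Cry1 when the Actb gap was a covariate (-0.25) or both second samples were left out (-0.18), and for Per1 with the covariate (-0.43). Nr1d2 changed sign with the covariate (-0.27), with 2 other probe sets (-0.87 and -0.24), without high-fat sample 1 (-0.24) and without probiotic sample 3 (-0.11). Per2, which lay near 0, did so without normalization (-0.0131), with a pseudocount of 64 (-0.0425), without high-fat sample 1 (-0.82) and without probiotic sample 3 (-0.14). The untested Per3 (-0.17) did so without high-fat sample 3 (0.17), probiotic sample 1 (0.0276) and probiotic sample 2 (0.15). The causes were not tested. With 1 sample left out, the difference ran from -0.17 to 1.20 for Bmal1, 0.43 to 0.81 for Clock, 0.77 to 2.47 for Npas2, 0.89 to 2.62 for Per1, -1.09 to -0.15 for Nr1d1, -3.42 to -0.72 for Dbp, -0.68 to 0.17 for Per3, 0.13 to 0.95 for Cry1, -0.24 to 0.61 for Nr1d2 and -0.82 to 0.50 for Per2, the count of all probe sets past the threshold ran from 3 to 12 (12 without probiotic sample 1, 9 without high-fat sample 1), that of genes on the other lists from 0 to 1, the gap between the arms from 0.189 to 2.10, and r of Bmal1 from -0.33 to 0.19 with Per1 and from 0.45 to 0.99 with Npas2. With median centring the relations of Bmal1 with Dbp (r = -0.90) and Nr1d1 (r = -0.88) passed. With the arm gap as a covariate 3 probe sets passed. The labels do not say whether a replicate number pairs samples, and this was not tested. The r of deviations was 0.144, 0.0270 and 0.0774 for equal numbers. All samples but probiotic sample 2, 5 of the 6, correlated best with their own number. In both groups the gap between the arms fell from sample 1 to 2 to 3. The replicate block took the SE of Dbp from 1.23 to 0.712, of Nr1d1 from 0.526 to 0.231 and of Nr1d2 from 0.454 to 0.190. For Clock it went from 0.260 to 0.263. With the replicate block 4 probe sets and 0 clock genes passed, and 4 clock genes were under an unadjusted p of 0.05 in place of 2. With 3 arrays a group, the SE of 1.23 for Dbp limits what can be seen, and dim Per3 could not be tested.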
